A study of Mus musculus with 9 samples.

Results

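Formative and primed epiblast factors were examined as 7 genes, taken by symbol from the 18504 named genes of the expression table: Fgf5, Otx2, Pou3f1, Sox3, Zic2, Zic5 and Lef1. All 7 were present. J1 is a line of embryonic stem (ES) cells from 129S4/SvJae mice, used here at passages 5 to 7, and its cells had Yap1 raised or lowered. Yap1 is the coactivator that the Hippo kinases keep out of the nucleus and that reaches DNA through TEAD proteins. There were 9 libraries in 8 groups, and the values are FPKM, a fragment count divided by transcript length and library size.

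Overexpression (Yap1_OE) had the control BirA, and no vector or dose is described in the labels. The pair labelled Yap1_KO1 and Yap1_KO2 was set against ESC, and nothing in the labels says whether these are separate clones. Knockdown in undifferentiated cells (Yap1_KD1) was set against Control. Knockdown in differentiated cells (dESC_Yap1_KD1) was set against dESC_control, and the labels give neither the length nor the method of differentiation. Only the knockout group had 2 libraries, so a difference between single libraries has no replicate check and carries no p-value.

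As ES cells leave the naive state of the early blastocyst they pass through a formative state, which resembles the epiblast just after implantation, to a primed state that is ready for the germ layers. The genes here mark or drive that passage. Fgf5 is a secreted fibroblast growth factor that the epiblast makes after implantation. Otx2 is a homeodomain factor that directs enhancers to the formative state and later patterns the forebrain. Pou3f1, also called Oct6, is a POU factor of the primed epiblast and of early neural cells. Sox3 is a close relative of Sox2. Zic2 and Zic5 are zinc-finger factors encoded side by side. Lef1 carries Wnt signals to DNA by binding beta-catenin.

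Promoter sequence was looked up because Yap1 acts through TEAD proteins and because 2 of the gene products, Lef1 and Otx2, bind short known sites themselves. RefSeq windows on GRCm38.p6, each of the 250 bases before a transcription start, matched 4 of the 7 genes by symbol, with 10 windows in all. Pou3f1, Sox3 and Zic2 were not matched. On that build Otx2, Zic2 and Zic5 lie on chromosome 14, Fgf5 on 5, Pou3f1 on 4, Lef1 on 3 and Sox3 on X. The expression values were made on another build, mm9. Searched on both strands were CATTCC for TEAD (GGAATG on the other strand), CTTTGA for TCF/LEF (TCAAAG) and TAATCC for OTX (GGATTA), and no letters of a match overlapped another match. The 3 windows with a match follow, with the match in capitals, and with them the single Fgf5 window, which had none. All read 5′ to 3′ on the gene's strand.
Fgf5, chr5:98253934-98254183, plus strand: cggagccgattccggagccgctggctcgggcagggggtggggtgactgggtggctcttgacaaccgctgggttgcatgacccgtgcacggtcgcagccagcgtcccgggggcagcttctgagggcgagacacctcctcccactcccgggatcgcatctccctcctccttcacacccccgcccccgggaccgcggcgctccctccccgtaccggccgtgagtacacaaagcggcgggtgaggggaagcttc
Zic5, chr14:122465659-122465908, minus strand, TEAD letters: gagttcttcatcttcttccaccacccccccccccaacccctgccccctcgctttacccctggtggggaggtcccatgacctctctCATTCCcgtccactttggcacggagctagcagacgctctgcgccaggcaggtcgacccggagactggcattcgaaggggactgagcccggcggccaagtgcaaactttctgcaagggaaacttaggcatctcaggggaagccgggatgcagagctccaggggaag
Otx2, chr14:48665110-48665359, minus strand, OTX letters: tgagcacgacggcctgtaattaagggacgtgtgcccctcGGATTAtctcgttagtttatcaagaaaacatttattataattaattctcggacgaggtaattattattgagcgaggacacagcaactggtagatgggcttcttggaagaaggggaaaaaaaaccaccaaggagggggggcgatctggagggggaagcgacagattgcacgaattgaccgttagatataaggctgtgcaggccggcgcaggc
Lef1, chr3:131156044-131156293, plus strand, TCF/LEF letters: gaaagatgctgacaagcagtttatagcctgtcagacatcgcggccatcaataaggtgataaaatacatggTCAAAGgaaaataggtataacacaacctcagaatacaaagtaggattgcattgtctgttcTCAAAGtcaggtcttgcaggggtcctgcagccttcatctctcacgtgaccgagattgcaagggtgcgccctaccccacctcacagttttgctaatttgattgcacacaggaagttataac
The TEAD letters of Zic5 began 165 bases before the start. The Lef1 window held the TCF/LEF letters at 180 and at 120 bases before one of its starts, and the other 3 Lef1 windows held none. The Otx2 match began 211 bases before 1 of 4 starts. Among 32851 windows of this length, 12.6% held the TEAD letters, 13.8% the TCF/LEF letters and 6.25% the OTX letters. A match is a run of letters and not a measured binding site.

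Yap1 itself was read first as a check of the labels. It stood at 46.7 FPKM in BirA and 139 in Yap1_OE. Knockdown left 4.55 against 37.4 FPKM in undifferentiated cells and 12.5 against 78.0 in differentiated cells. ESC had 65.4 FPKM, while the library labelled Yap1_KO1 kept 57.3 and the library labelled Yap1_KO2 kept 27.6. Yap1 RNA was thus not absent from either, and its level does not check their labels. Of 10 known Yap1 target genes, 4 of 8 tested were at least 2-fold below ESC in the first, against 1.69% of genes. In the second 5 of 7 were, against 1.70%. At least 2-fold above were 0, against 0.594% and 0.658%, and 3 and 2 of those tested were higher by less. Cyr61 in both, and Ctgf in the second, were under 1 FPKM there and could only count as lower. Ctgf, a secreted matrix protein gene among the targets, was 7.62 FPKM in ESC and 1.30 and 0.846 in the pair. By limma with Benjamini-Hochberg adjustment 0 of 8 targets passed, against 0.173% of genes. At an unadjusted limma p under 0.05, 5 were lower, against 10.5%, and 1 was higher, against 12.6%. The shallowest library, labelled Yap1_KO1, had an estimated 9.24 M (mega) fragments, and the deepest, Control, 22.4 M. Pou5f1, the central pluripotency factor that defines ES cells, ranged over the 7 undifferentiated libraries from 1017 to 1261 FPKM. In the differentiated libraries it was 927 and 1115 FPKM.

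In undifferentiated cells the 7 genes were expressed at very different levels. Otx2 was the most abundant of them in each of the 7 undifferentiated libraries, and Fgf5 the least. FPKM values are per length, so the genes can be ordered within a library. Over the 3 undifferentiated controls, BirA, ESC and Control, Otx2 stood at 36.2, 20.0 and 29.3 FPKM, above every other member. The Pou3f1 values were 9.60, 6.33 and 3.60 FPKM, a range that overlapped those of Zic2, Zic5 and Lef1. Between the closest neighbours, Zic2 (5.05 to 6.63 FPKM) and Zic5 (4.83 to 5.21) overlapped. Lef1 followed at 2.67 to 4.43 FPKM and Sox3 at 0.631 to 2.49, and these ranges did not overlap each other.

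**Figure D1:**
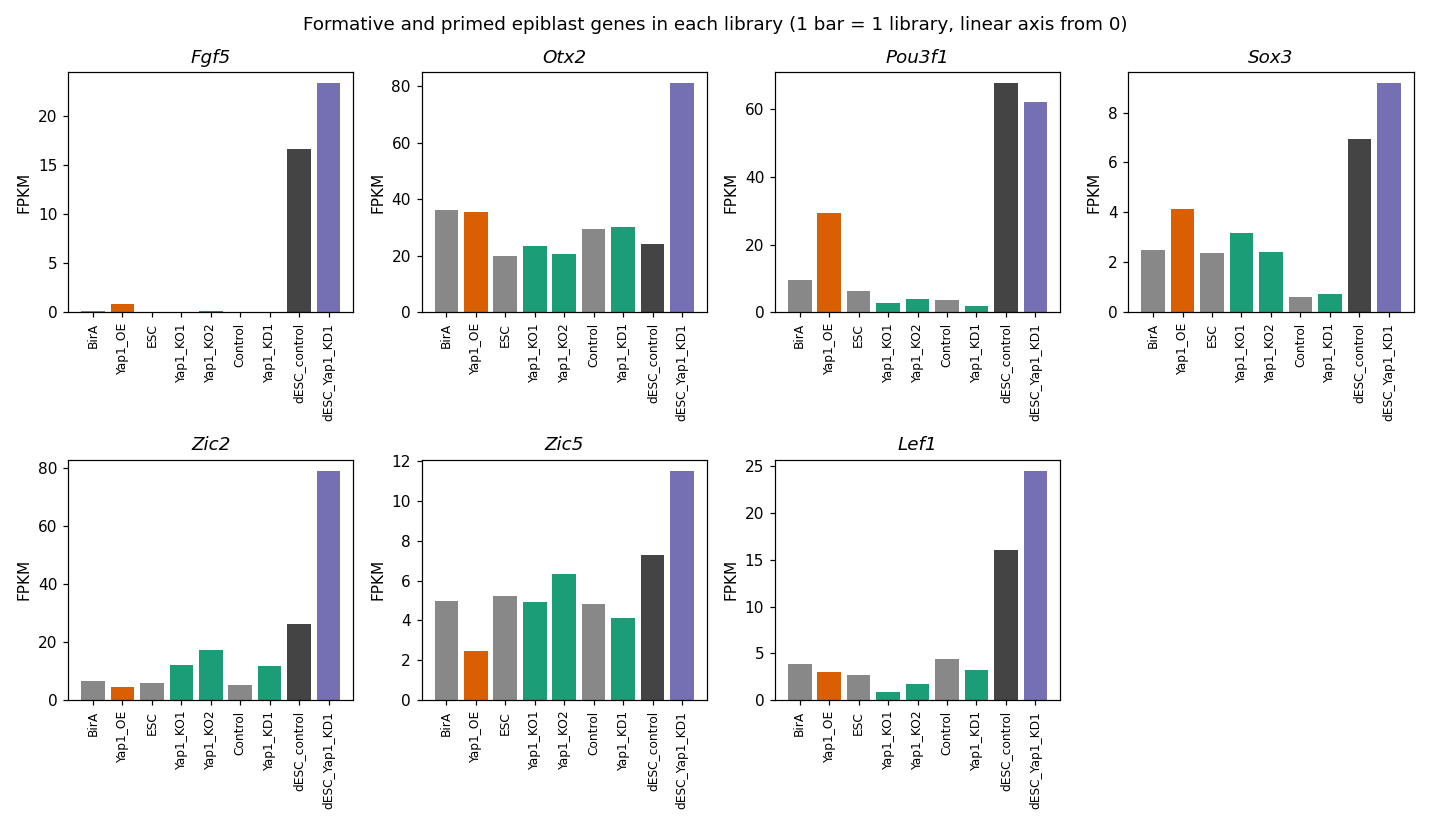
FPKM (linear axis from 0) of each of the 7 genes in each of the 9 libraries, 1 bar for 1 library. Grey bars are controls, orange is Yap1_OE, green the undifferentiated libraries labelled for loss of Yap1 and violet dESC_Yap1_KD1; 6 of the 7 genes have both differentiated bars above every undifferentiated bar, and Otx2 is tall in dESC_Yap1_KD1 only, at 81.0 FPKM against 24.0 in dESC_control.

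The controls also show how far libraries with no labelled change of Yap1 lay apart. Zic2 and Zic5 were nearly level across BirA, ESC and Control. Sox3 was lower in Control than in ESC by 1.05 on the log2 scale, where log2 ratios throughout are of FPKM + 1 and so understate the change of low genes. The Otx2 log2 ratio of BirA over ESC was 0.82. Wider still was Pou3f1, at 9.60 FPKM in BirA and 3.60 in Control, an FPKM ratio of 2.67. For Sox3 the FPKM ratio of BirA over Control was 3.94. Gaps as wide as these thus occurred with no labelled change of Yap1.

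Differentiation brought out most of these genes. Pou3f1, Zic2 and Lef1 rose, with both differentiated libraries above both undifferentiated partners, and Zic5 and Otx2 did not pass the test. Fgf5 and Sox3 were also higher in both, but under 1 FPKM in Control and Yap1_KD1. They entered the test only through the differentiated libraries, which fixed their direction, so their values are given with no test. Control and dESC_control were taken as partners because both are controls of a knockdown, which the labels do not state outright. The test was limma's moderated test on log2(FPKM + 1) with Benjamini-Hochberg adjustment at 0.05, with a term for differentiation and a term for knockdown over these 4 libraries. It called 3 of the other 5 members, all higher. Of all 12719 genes tested it called 38.9%, 20.3% higher and 18.6% lower. The labels name no separate cultures, so a p-value here speaks only of the spread among the sequenced libraries, and that spread may be technical.

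Fgf5 was listed at 0.0191 FPKM in Control and 0.0474 in Yap1_KD1, which amounts to about 1 and 2 fragments. It stood at 16.6 FPKM in dESC_control and 23.3 in dESC_Yap1_KD1, or about 799 and 770 fragments. The FPKM ratio of dESC_control over Control was 867 with a 95% counting interval of 166 to 36673, so its size is poorly fixed by so few fragments. Counting intervals here come from estimated fragments by the exact binomial method and cover counting error only. The fitted log2 change was 4.32, and it ran from 2.30 with a pseudocount of 5 FPKM to 7.22 with a pseudocount of 0.1, so its size rests on that choice.

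Pou3f1 went from 3.60 FPKM in Control to 67.6 in dESC_control, and from 1.91 in Yap1_KD1 to 62.0 in dESC_Yap1_KD1. It was the most abundant member in dESC_control. The first of these ratios was 18.8 (95% counting interval 16.8 to 21.2). By limma the log2 change was 4.17 (standard error, SE, 0.18, Benjamini-Hochberg adjusted p = 0.0119).

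Sox3 stood at 0.631 and 0.727 FPKM in Control and Yap1_KD1 and at 6.93 and 9.17 in the differentiated pair. Despite this it was the least abundant member in differentiated cells. Its fitted log2 change was 2.42 (SE 0.18). Other undifferentiated controls were higher than Control, BirA at 2.49 and ESC at 2.39 FPKM, and both differentiated libraries still lay above the highest undifferentiated library, Yap1_OE at 4.14 FPKM.

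Zic2 had 5.05 FPKM in Control, 11.8 in Yap1_KD1, 26.1 in dESC_control and 78.8 in dESC_Yap1_KD1. Each state thus had its higher value in the knockdown library. With differentiation its log2 change by limma was 2.40 (SE 0.17, Benjamini-Hochberg adjusted p = 0.0135). Its neighbour Zic5 had 4.83 and 4.13 FPKM in the undifferentiated pair and 7.28 and 11.5 in the differentiated pair, a limma log2 change of 0.89 (SE 0.24, Benjamini-Hochberg adjusted p = 0.0571). Without small RNA rows the Zic5 value passed, at a limma Benjamini-Hochberg adjusted p of 0.0387, and over all settings tried that p ran from 0.0387 to 0.149.

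Lef1 stood at 4.43 and 3.24 FPKM in the undifferentiated pair and at 16.1 and 24.5 in the differentiated pair. Its limma log2 change was 2.12 (SE 0.27, Benjamini-Hochberg adjusted p = 0.0177). Otx2 stood apart from the others. It had 29.3 FPKM in Control and 30.0 in Yap1_KD1, 24.0 in dESC_control and 81.0 in dESC_Yap1_KD1, so only the differentiated knockdown library was high. Here limma gave 0.56 with a wide SE of 0.44 and a Benjamini-Hochberg adjusted p of 0.353.

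Against all 7 undifferentiated libraries, both differentiated libraries were higher for 6 of the 7 genes, all but Otx2, and for 21.0% of the 12871 genes at 1 FPKM or more in a library. Both were lower for 0 members and for 18.9% of genes. Fgf5 reached 1 FPKM only in the differentiated libraries and could only count as higher, and without it the count is 5 of 6. Taken pair by pair, dESC_control was at least 2-fold above Control for 5 of 7 members, against 13.1% of genes tested, and below it for 0, against 10.1%. Set against Yap1_KD1, dESC_Yap1_KD1 was at least 2-fold higher for 7 of 7, against 10.3%, and lower for 0, against 10.4%. Fgf5 and Sox3 could only count as higher in both of these comparisons, and without them the counts are 3 of 5 and 5 of 5. The median log2 ratio of the members was 2.16 in the first pair and 2.59 in the second. Fgf5 and Sox3, with their direction so fixed, are in both of these medians. Over all genes tested the medians were 0.0397 and 0.00349. The limma calls of Pou3f1, Zic2 and Lef1 rest on the filter at 1 FPKM: with no filter their Benjamini-Hochberg adjusted p values were between 0.0634 and 0.0714, and no gene in the table was called. Over all settings tried they ran from 0.00352 to 0.0714.

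**Figure D2:**
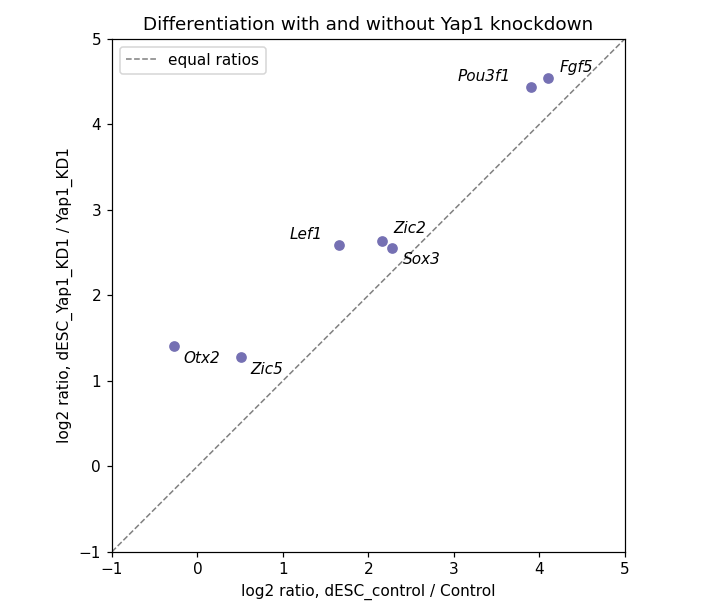
Each point is 1 of the 7 genes, with its log2 ratio of dESC_control over Control on the horizontal axis and of dESC_Yap1_KD1 over Yap1_KD1 on the vertical axis; the dashed line marks equal ratios. All 7 points lie above the line, Otx2 farthest from it at -0.27 and 1.40, and Pou3f1 and Fgf5 sit at the top right.

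Knockdown of Yap1 in differentiated cells left Otx2 and Zic2 at about 3 times their level in the differentiated control, and Pou3f1 close to it. Otx2 was 24.0 FPKM in dESC_control and 81.0 in dESC_Yap1_KD1, a ratio of 3.37 (95% counting interval 3.15 to 3.61). Zic2 was 26.1 and 78.8 FPKM, a ratio of 3.02 (2.82 to 3.23). These were the 2 of 7 members at least 2-fold higher, against 1.71% of the 11845 genes tested. None was at least 2-fold lower, against 4.77%.

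The other 5 genes differed by less. Their FPKM ratios of dESC_Yap1_KD1 over dESC_control were 1.41 for Fgf5 (95% counting interval 1.27 to 1.56), 1.32 for Sox3 (1.11 to 1.58), 1.57 for Zic5 (1.41 to 1.75), 1.52 for Lef1 (1.40 to 1.66) and 0.917 for Pou3f1 (0.877 to 0.959). Counting error does not cover the spread between cultures, which these 2 libraries cannot show. The median log2 ratio of the members was 0.575, and that of all genes tested was -0.0111. As for Otx2, the opposite-strand RNA Otx2os1 overlaps an exon in the GRCm38 annotation, and no strand setting is given in the sources used here. It was listed at 0 in dESC_control and 0.133 FPKM in dESC_Yap1_KD1, far below Otx2. Antisense transcripts are also annotated over Pou3f1 and Lef1, and their reads cannot be told apart.

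Markers of other cell types also differed between the 2 differentiated libraries. The 11 primitive streak markers summed to 189 FPKM in dESC_control and 65.5 in dESC_Yap1_KD1, and T, the gene that defines the streak, was 70.7 and 20.0. Of these 11, 9 reached 1 FPKM in a differentiated library. In the knockdown 6 of 9 tested were at least 2-fold lower, against 4.77% of genes. Mesp1 and Gsc, among the 6, were under 1 FPKM in dESC_Yap1_KD1 and could only count as lower. In undifferentiated libraries the primitive streak sum lay between 3.95 and 7.18 FPKM. Trophoblast markers, 12 genes, summed to 1435 and 220 FPKM, largely Krt8 and Krt18. Of 10 tested, 5 were at least 2-fold lower, against the same 4.77% of genes. Naive markers, 16 genes, summed to 444 and 682 FPKM. Of 17 neuroectoderm markers 2 reached 1 FPKM in a differentiated library. Nes, an intermediate filament gene of neural progenitors, was 1.15 and 1.61 FPKM in Control and Yap1_KD1. In the differentiated pair it was 50.1 and 28.6. With differentiation limma called Nes higher, 1 of the 4 neuroectoderm markers tested, against 20.3% of genes. It called 1 lower, Ncam1, against 18.6%, at 3.91 and 4.09 FPKM and then 0.847 and 0.584. Ncam1 was thus under 1 FPKM in both differentiated libraries and could only count as lower, so its call is no test result. Tubb3, a neuronal tubulin gene, was 39.7 and 36.1 FPKM and then 16.1 and 28.5, while Sox1, an early neural gene, was at 0.203 and 0.130 FPKM in the differentiated pair. The part of these other cell types in the values of the 7 genes was not tested. In bulk RNA a larger share of cells with a transcript and more of it per cell cannot be told apart.

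**Figure D3:**
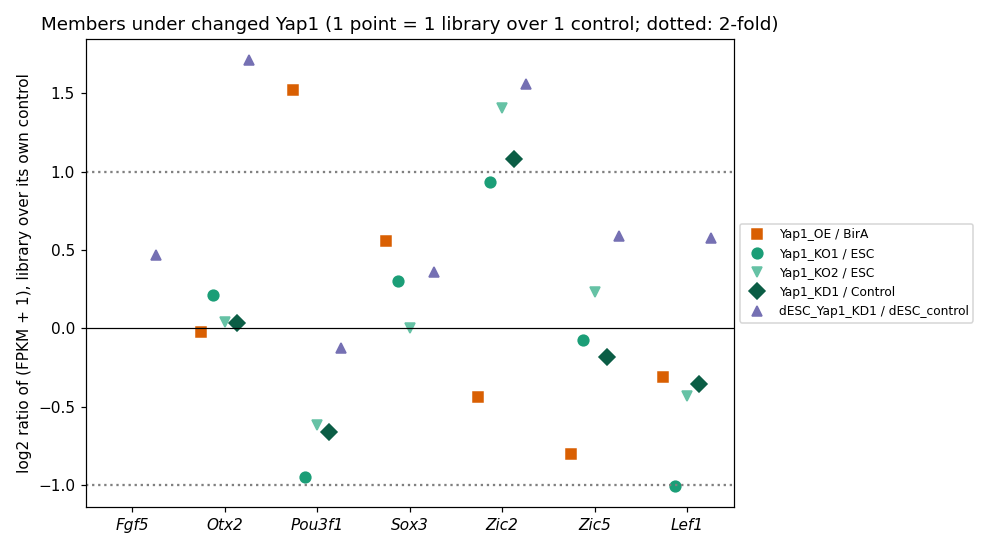
Log2 ratio of (FPKM + 1) of each perturbed library over its own control for the 7 genes, 1 point for 1 library over 1 control, with dotted lines at 2-fold; ratios of genes under 1 FPKM in both libraries are left out, so Fgf5 has a single point. Zic2 lies above 0 for all 4 libraries labelled for loss of Yap1 and below 0 for Yap1_OE, Pou3f1 does the opposite, and Otx2 passes 2-fold only in dESC_Yap1_KD1.

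In undifferentiated cells Zic2 stood at 2 to 3 times its own control under each labelled loss of Yap1. It had 5.90 FPKM in ESC, 12.2 in the library labelled Yap1_KO1 and 17.2 in the library labelled Yap1_KO2. In the knockdown arm it had 5.05 FPKM in Control and 11.8 in Yap1_KD1. All 3 perturbed libraries lay above the highest of the 3 undifferentiated controls, 6.63 FPKM in BirA. The FPKM ratios were 2.06 (95% counting interval 1.72 to 2.48), 2.92 (2.49 to 3.44) and 2.34 (2.02 to 2.71).

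These differences did not pass the adjusted test. Limma on the pair labelled as knockouts against ESC gave Zic2 a log2 change of 1.17 (SE 0.24, unadjusted p = 0.00742, Benjamini-Hochberg adjusted p = 0.151). Fitted over both arms with a term for the arm, limma gave 1.13 (SE 0.18, unadjusted p = 0.000625, Benjamini-Hochberg adjusted p = 0.362). Over the other settings tried the limma adjusted p of Zic2 ran from 0.0471 to 0.329 in the first fit and from 0.0988 to 1 in the second. Each single control is taken to vary as much as the replicated pair. Over these 3 perturbed libraries and dESC_Yap1_KD1, Zic2, Otx2 and Sox3 were higher than the own control in all 4. So were 10.2% of 12844 genes. In the library labelled Yap1_KO2 the log2 ratio was only 0.00 for Sox3 and 0.04 for Otx2. For Yap1_KD1 over Control it was 0.08 for Sox3, under 1 FPKM in both, and 0.04 for Otx2. Pou3f1 was the 1 member lower in all 4, against 12.1%, and the pair labelled as knockouts shares ESC.

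Pou3f1 lay on the other side. It had 6.33 FPKM in ESC, 2.79 in the library labelled Yap1_KO1, 3.79 in the library labelled Yap1_KO2, and 3.60 in Control against 1.91 in Yap1_KD1. Each value was below its own control, yet 3.79 FPKM lies within the range of the 3 controls, 3.60 to 9.60 FPKM, and the other perturbed values lie below it. By limma the log2 change was -0.78 for the knockout-labelled pair (SE 0.21, unadjusted p = 0.0194, Benjamini-Hochberg adjusted p = 0.17) and -0.73 over both arms (SE 0.17, unadjusted p = 0.00482, Benjamini-Hochberg adjusted p = 0.576).

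Lef1 had 2.67 FPKM in ESC, 0.826 in the library labelled Yap1_KO1, 1.72 in the library labelled Yap1_KO2, 4.43 in Control and 3.24 in Yap1_KD1. Lower values than the own control were thus found in all 3, although Yap1_KD1 lay within the range of the controls. Over both arms limma gave -0.56 on the log2 scale (SE 0.22, unadjusted p = 0.0441, Benjamini-Hochberg adjusted p = 0.733). Otx2, Sox3 and Zic5 had limma log2 changes over both arms between -0.03 and 0.12. Otx2 was 20.0 FPKM in ESC and 23.4 and 20.6 in the pair labelled as knockouts. Fgf5 stayed at or under 0.102 FPKM in these libraries, at most about 3 fragments, and was listed at 0 in the library labelled Yap1_KO1, so no difference was detectable at this depth.

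Among the 6 members tested by limma with Benjamini-Hochberg adjustment, 0 passed in the knockout-labelled pair, against 0.173% of 11538 genes, and 0 of 6 over both arms, against 0.0165% of 12128. At an unadjusted p under 0.05 the counts were 2 of 6, against 23.1%, and 3 of 6, against 6.75%. In the first, Zic2 was higher (12.6% of genes were) and Pou3f1 lower (10.5%). In the second, Zic2 was higher (2.77%) and Pou3f1 and Lef1 lower (3.98%). In the single-library comparison of Yap1_KD1 with Control, 1 of 5 members tested was at least 2-fold higher, against 0.506%, and 0 lower, against 0.506%. These 2-fold counts are on FPKM + 1, which pulls low genes together. For the library labelled Yap1_KO1 over ESC, Lef1 was the 1 of 6 at least 2-fold lower, against 1.69%, and 0 were higher, against 0.594%. Lef1 was under 1 FPKM in that library and could only count as lower. With a pseudocount of 0.1 in place of 1, Pou3f1 (-1.15) and Zic2 (1.03) also passed 2-fold there, and with 5 Lef1 (-0.40) did not. For the library labelled Yap1_KO2, Zic2 was the 1 of 6 higher, against 0.658%, and 0 were lower, against 1.70%. On FPKM + 1 no member was 2-fold apart from ESC in both, although the plain FPKM ratio of Zic2 was, and 0.191% of genes were higher and 0.979% lower.

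GC content moved with the ratios of the libraries labelled as knockouts. Across genes, which are not independent replicates, Spearman's rho of the log2 ratio with transcript GC was -0.584 for Yap1_KO1 and -0.595 for Yap1_KO2 over ESC, and 0.163 for Yap1_KD1 over Control. Sox3, Pou3f1 and Zic2 are GC-rich, at 66.4%, 63.9% and 59.9%, which puts them at percentiles 99.5, 98.9 and 94.5 of the genes with a value. With the GC trend removed, the limma log2 change of the knockout-labelled pair was 1.44 for Zic2, -0.44 for Pou3f1 and 0.53 for Sox3, which had 0.15 before. Over both arms Sox3 had 0.12 before and 0.36 after, and it passed limma's adjusted test in neither. The Zic2 difference was thus as large without the trend, and that of Pou3f1 was smaller by over 1.5 times.

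Pou3f1 was higher in the library overexpressing Yap1. BirA had 9.60 FPKM and Yap1_OE 29.4, a ratio of 3.06 (95% counting interval 2.79 to 3.37), and no other undifferentiated library exceeded 9.60 FPKM. On FPKM + 1 this was the 1 of 6 members tested at least 2-fold higher, against 1.60% of genes, and 0 were lower, against 2.35%, although the plain FPKM ratio of Zic5 was past 2-fold. Fgf5 was below the filter, at 0.0879 FPKM in BirA and 0.878 in Yap1_OE. These are about 3 and 48 fragments, and the FPKM ratio, which allows for depth, was 10 (95% counting interval 3.42 to 53.3), and the Yap1_OE value was the highest of the 7 undifferentiated libraries.

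Zic5 was lower there, at 4.99 FPKM in BirA and 2.44 in Yap1_OE, a ratio of 0.488 (95% counting interval 0.413 to 0.575). This was the lowest Zic5 value of all 9 libraries. Its neighbour Zic2 was 6.63 and 4.64 FPKM, a ratio of 0.700 (0.584 to 0.840), also the lowest of all 9. Sox3 was 2.49 and 4.14 FPKM, Otx2 36.2 and 35.6, and Lef1 3.90 and 2.96. Trophoblast markers summed to 65.4 FPKM in BirA and 248 in Yap1_OE, largely Krt8 (63.4 in Yap1_OE) and Krt18 (130). Of 8 tested, 5 were at least 2-fold higher, against 1.60% of genes. Gata3 and Hand1, among the 5, were under 1 FPKM in BirA and could only count as higher. The part of trophoblast markers in the values of the members was not tested.

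Relatives of these genes were read for comparison. Zic1 and Zic4 stayed under 1 FPKM in all 9 libraries. Sox2, the partner of Pou5f1 in pluripotent cells, was 317 and 325 FPKM in Control and Yap1_KD1 and 76.3 and 182 in the differentiated pair, and limma called it lower with differentiation. Fgf4, the ligand of the naive state, was 81.5 and 102 FPKM before and 13.4 and 46.2 after, and Fgf8, a primitive streak ligand, 1.58 and 2.14 before and 34.5 and 12 after.

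Among the TCF/LEF factors, Lef1, Tcf7 and Tcf7l1 rose with differentiation and Tcf7l2 did not pass. Limma gave log2 changes of 0.71 for Tcf7 (SE 0.12, Benjamini-Hochberg adjusted p = 0.0236) and 1.17 for Tcf7l1 (SE 0.23, Benjamini-Hochberg adjusted p = 0.0313), beside the 2.12 of Lef1. Of 14 Wnt target genes, Lef1 included, 13 were tested. Limma called 9 higher, against 20.3% of all genes tested, and 0 lower, against 18.6%. Of the 9, Nkd1, Sp5, Cdx2 and T were under 1 FPKM in Control and Yap1_KD1. The filter fixed their direction, so they could only come out higher. Axin2, a feedback inhibitor of the Wnt pathway, was 2.74 FPKM in Control and 26.1 in dESC_control. In dESC_Yap1_KD1 it was 16.9 FPKM, below dESC_control, where Lef1 was above.

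A list of 25 other formative and primed genes gives the setting. With differentiation limma called 13 of 24 tested higher and 2 lower, against 20.3% and 18.6% of all genes tested. The median log2 change was 1.0, beside 2.40 for the 7 members and 0.0179 for all genes tested. Fst, Cdh2 and Car14, among the 13, were under 1 FPKM in Control and Yap1_KD1, as were the members Fgf5 and Sox3. The filter fixed the direction of these genes, which are in the medians. Of the 13, Fst, an inhibitor of activins, had a log2 change of 3.89, with its direction so fixed. The kinase gene Pim2 had 3.17, the DNA methyltransferase gene Dnmt3b 2.93 and the zinc-finger gene Sall2 2.79. The 2 that fell were Etv4, an ETS factor downstream of FGF signalling, and Tdgf1, a co-receptor for Nodal. Of 16 naive genes limma called 12 lower and 0 higher, with a median of -1.55, led by Klf4 at -3.14 and Tet2 at -2.97.

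Under knockdown in differentiated cells, 7 of 24 of the other formative and primed genes passed 2-fold upward, against 1.71% of genes tested. Downward 0 passed, against 4.77%, and the median log2 ratio was 0.283. Car14 was 2.93 FPKM in dESC_control and 9.67 in dESC_Yap1_KD1, Tcf15 32.7 and 83.8, Foxd3 9.63 and 23.3, and Utf1 343 and 722. Naive genes were also higher there, 5 of 16 at least 2-fold and 0 lower, against the same shares. Their median log2 ratio was 0.652. Higher values in dESC_Yap1_KD1 were thus found in formative, primed and naive lists alike. No difference between the lists was tested. In undifferentiated knockdown cells 0 of 21 of the other formative and primed genes were 2-fold apart, against 0.506% of genes in each direction. The median of these 21 was -0.246. In Yap1_OE 2 of 24 were at least 2-fold higher, Pim2 and Dnmt3b, against 1.60%, and 0 lower, against 2.35%.

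**Figure D4:**
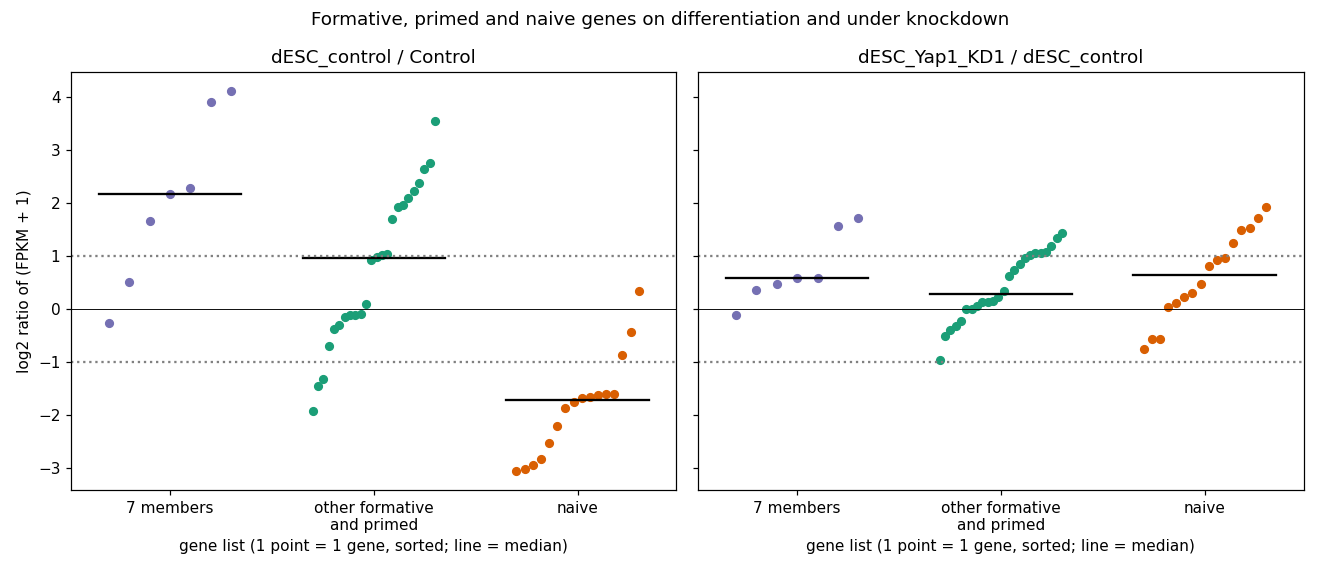
Log2 ratio of (FPKM + 1) of the 7 members, the other formative and primed genes and the naive genes, 1 point for 1 gene sorted by value, with a line at each list's median and dotted lines at 2-fold. On the left, dESC_control over Control, the medians are 2.16, 0.955 and -1.71. On the right, dESC_Yap1_KD1 over dESC_control, they are 0.575, 0.283 and 0.652. The member median on the left includes Fgf5 and Sox3. The filter fixed their direction there, as it did for other genes under 1 FPKM in 1 library compared.

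The members differed in how closely they followed one another over the 9 libraries. Pearson's r of log2(FPKM + 1) was 0.92 for Lef1 with Fgf5, 0.89 for Pou3f1 with Fgf5 and 0.87 for Zic5 with Zic2, and between 0.40 and 0.66 for Otx2 with the others. Within the 7 undifferentiated libraries Zic2 with Pou3f1 was -0.65 and Zic5 with Zic2 was 0.55. The libraries share controls and the 2 differentiated ones carry most of the range, so these are descriptions of 9 libraries.

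The genes most like each member, among 3166 or 3167 genes with a mean of 5 FPKM or more and a range of at least 1 on the log2 scale, were ranked by the same r. Fgf5 was followed by Vrtn (0.992), Msx1 (0.989) and Elf1 (0.982), and Pou3f1 by Foxi3 (0.992), Sulf1 (0.990) and Nsmaf (0.988). Foxi3 had 1.93 FPKM in BirA, 9.20 in Yap1_OE, 25.6 in dESC_control and 28.4 in dESC_Yap1_KD1, high in the same 3 libraries as Pou3f1. Zic2 and Zic5 shared Tead2 as their closest gene, at 0.947 and 0.919. Tead2 encodes one of the TEAD proteins that Yap1 binds, and it stood at 64.4 FPKM in Control, 109 in dESC_control and 161 in dESC_Yap1_KD1. It was 74.2 FPKM in Yap1_KD1, 84.2 in ESC and 82.8 and 92.4 in the pair labelled as knockouts. In these undifferentiated libraries it thus lay closer to its own controls than Zic2 did. For Otx2 the closest was the metallothionein gene Mt1 (0.919), which was 148 FPKM in dESC_control and 868 in dESC_Yap1_KD1. Sox3 was nearest to Slc38a7 (0.984) and Lef1 to Fam134a (0.981).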

How the data were processed

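Gene expression was measured by RNA-seq in 9 libraries. The authors deposited 1 table of FPKM values, made with TopHat2 and Cuffdiff on mm9 per the submitters' processing notes. The sources used here give no versions, annotation or strand setting, and Cuffdiff can list a failed estimate as 0. Of 23277 rows, 4746 blank ones and 27 with a date in place of a symbol were left out. Columns were matched to samples by title.

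Log2 ratios and tests used log2(FPKM + 1) of genes that reached 1 FPKM in any compared library. Single libraries were called apart at 2-fold. The other comparisons used limma (3.58.1, under R 4.3.3), with its trend option and a Benjamini-Hochberg threshold of 0.05, tested on simulated data. They had 1 residual degree of freedom, or 2 over both arms. Depth, and fragments per gene, were estimated from the steps between low FPKM values and transcript lengths, on a scale from 634 genes (quartiles 13.5 to 14.9 M fragments for BirA).

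Members, gene lists and tests were chosen with earlier results of these data known. Named are all 7 members and, from other lists, up to 4 genes with the largest ratio. Exceptions, chosen after their values were seen, are Yap1 and lineage genes given as checks (Pou5f1, T, Krt8, Krt18, Sox1, Nes, Tubb3, Ctgf, Otx2os1), the relatives of members, Axin2, Etv4 and Tdgf1, and the genes ranked beside Zic2. Further exceptions are Ncam1 and the genes named because the filter at 1 FPKM fixed their direction. Alternatives were other pseudocounts, filters, scalings, a GC correction, libraries left out and other controls.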

Additional observations from a re-analysis of the deposited data

Results flagged for a closer look

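Knockdown of Yap1 went with opposite signs in the undifferentiated and the differentiated pair for 2 genes, each in 1 library over 1 control. The Zic5 log2 ratio was -0.18 for Yap1_KD1 over Control and 0.59 for dESC_Yap1_KD1 over dESC_control. For Lef1 the values were -0.36 and 0.58. With 1 library in each group, the difference between the states was not tested.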

How the results depend on the processing

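No called result reversed among the members under the alternatives run. Of uncalled values, the Otx2 change by limma in the pair labelled as knockouts, 0.13, was -0.32 with BirA and Control added as controls, and that of Zic5 over both arms, -0.03, lay between -0.13 and 0.03. With a pseudocount of 0.1, 1 member instead of 0 was at least 2-fold lower in Yap1_OE (Zic5, -1.01), and with a pseudocount of 5 the knockdown in undifferentiated cells had 0 instead of 1 (Zic2, 0.74). The count of members at least 2-fold apart in both libraries labelled as knockouts was 0, and 1 with a pseudocount of 0.1, with the GC trend removed, and with only 1 of the libraries (1 to 1). With limma, 20 genes were called for that pair. The count was 317 with the median log2 ratio set to 0, where 1 member passed (Zic2, Benjamini-Hochberg adjusted p = 0.0471, over all settings 0.0471 to 0.329), 39 with the GC trend removed, 48 without small RNA rows, 1 with BirA and Control added as controls, and 0 with no filter. Over both arms 2 genes were called by limma, with 1 at a pseudocount of 0.1, at a 5 FPKM filter or with no term for the arm, 4 without small RNA rows and 0 with no filter. Leaving out a library labelled as a knockout gave 4 to 15 there. For differentiation 4952 genes and 5 members were called by limma, and 0 genes and 0 members with no filter. The 5 include Fgf5 and Sox3, whose direction the filter had fixed, so their calls are no test result. Causes were not tested. The fit without the knockout arm is the single-library knockdown comparison, and comparing the differentiated libraries with the range of all 7 others was added after seeing the data.

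No paired analysis was possible because the groups share only the number 1 and the controls carry none. Depth limits Fgf5 in undifferentiated cells, at 0 to 48 estimated fragments.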

Other observations

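Few genes stood as far above their own control as Zic2 in all 4 libraries with labelled loss of Yap1. The 4 ratios are not independent, since the libraries labelled as knockouts share ESC. Ranked among 12844 genes by the lowest of the 4 log2 ratios, which for Zic2 was 0.93, it was in place 4, behind Vax2, Vax2os and Trh. This ranking was chosen after the values were seen. Vax2, a homeobox gene of the ventral eye, had log2 ratios of 1.97 and 1.03 in the libraries labelled Yap1_KO1 and Yap1_KO2, 1.52 in Yap1_KD1, 1.23 in dESC_Yap1_KD1 and -1.76 in Yap1_OE. Vax2os is transcribed beside it and its reads may not be separable. Trh, which encodes thyrotropin-releasing hormone, had 0.96, 1.08, 1.15, 1.92 and -0.61 in the same order, and Zic2 0.93, 1.40, 1.08, 1.56 and -0.44.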
